A study of Homo sapiens with 16 samples.

Results

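The genes described here are the ligands and receptors of axon guidance, chosen by gene symbol as the semaphorins of classes 3 to 7, plexins, neuropilins, ephrins, Eph receptors, Slits, Robos, netrins and UNC5 receptors. The rule found 64 genes on 63 probe sets, of 18421 genes named for the array. It chooses genes by symbol alone, and takes the probe set with the highest mean where a gene has several. For 59 of the 64 genes the probe set taken carries no other symbol, and these are called genes with a probe set of their own. For the other 5 (EFNA3, EFNA4, SEMA3E, SLIT2 and SLIT3) the probe set taken carries several symbols, so they were counted and given no values by name. EFNA3 and EFNA4 share 1 probe set, which is counted for both, and EFNA3 has a second, dimmer one that was not used. No probe set was found for ROBO2, PLXNB2, EPHB2 or UNC5A, so counts within a family cover only the genes found.

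All samples came from H9, an established human embryonic stem cell line, and RNA was measured on Human Exon 1.0 ST arrays after ribosomal RNA was depleted. Undifferentiated cells (day 0, n = 4) grew on mouse feeder cells, or on Matrigel in medium that such feeders had conditioned, with basic FGF at 8 ng/ml. The other groups had 1 day (n = 3), 3 days (n = 3) or 5 days (n = 4) of activin A at 100 ng/ml in RPMI, with defined serum raised in steps of 0%, 0.2% and 2%. Activin, medium and serum changed together with time and cannot be told apart, and a single cell line was used.

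Axon guidance molecules steer growing neurites by attraction and repulsion. Secreted class 3 semaphorins are received by neuropilins together with class A plexins, and most other semaphorins bind plexins directly. Netrins signal through DCC and UNC5 receptors, Slits through Robo receptors, and membrane-bound ephrins through Eph receptor tyrosine kinases on neighbouring cells. The same molecules also act outside the nervous system, in vessel growth, in cell migration and at tissue boundaries of the early embryo.

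Values are log2(intensity + 1) from the deposited table, where 1 unit is a doubling, and a difference is given with its standard error (SE) from limma. A gene passed the test when its p-value, adjusted by Benjamini-Hochberg over all 18495 probe sets, was under 0.05. Each sample's values were correlated with those of its group, and the median was 0.829 for day 3 replicate 2 and 0.858 for day 5 replicate 2, against 0.901 to 0.962 for the other samples. All 11 definitive endoderm markers passed the test and were higher at day 5 than at day 0, as were 2.56% of all probe sets. Their summed intensity was 2752 to 7470 at day 0, 12091 to 35958 at day 1 and 46263 to 66432 at day 5. At day 3 that sum was 46301 and 52533 in replicates 1 and 3 and 3991 in replicate 2. Day 3 replicate 2 was the lowest of the 14 samples for 16 of the 59 guidance genes with a probe set of their own (27.1%, against 17.3% of all probe sets). Day 5 replicate 2 was the lowest for 20 of them (33.9%, against 18.3%). Both libraries were kept, and day 3 results are given with and without day 3 replicate 2.

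Day 5, the end of the time course, was compared with day 0, its start. At day 5, 13 of the 64 genes passed the test (20.3%, against 5.46% of all probe sets), of which 11 rose and 2 fell (2.56% and 2.89% of all probe sets). Without day 3 replicate 2, which enters here only through the shared spread, 15 passed (8.73% of all probe sets), 13 higher (4.07%) and 2 lower (4.66%). Among the genes that passed with all samples, PLXNA2, NTN1, NTN4, SEMA6D and EPHA4 rose by between 9.18-fold and 17.4-fold. Both genes that fell, SEMA4B and EPHA1, changed less, by 3.38-fold and 2.60-fold. Among the genes with a probe set of their own, 6 of 30 ligands (5 higher, 1 lower) and 6 of 29 receptors (5 higher, 1 lower) passed. The other gene that rose shares its probe set with further symbols. With single samples left out, 8 genes passed in place of 13 for replicate 1 or 2 of day 0 and likewise for day 5 replicate 3 (2.97%, 3.00% and 4.12% of all probe sets did). Leaving out day 0 replicate 4 gave 7 genes (3.63%), and leaving out day 0 replicate 3 gave 5 (3.82%).

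The median difference over the 64 genes was 0.07, against -0.02 over all probe sets, with 37 genes above 0 and 27 below. Groups did not overlap for 19 of the 64 genes (29.7%, against 14.6% of all probe sets), with day 5 above day 0 for 15 (6.07% of all probe sets) and below for 4 (8.57%). In bulk samples such as these, a change in the number of cells that express a gene and a change in RNA per cell cannot be told apart.

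**Figure D1:**
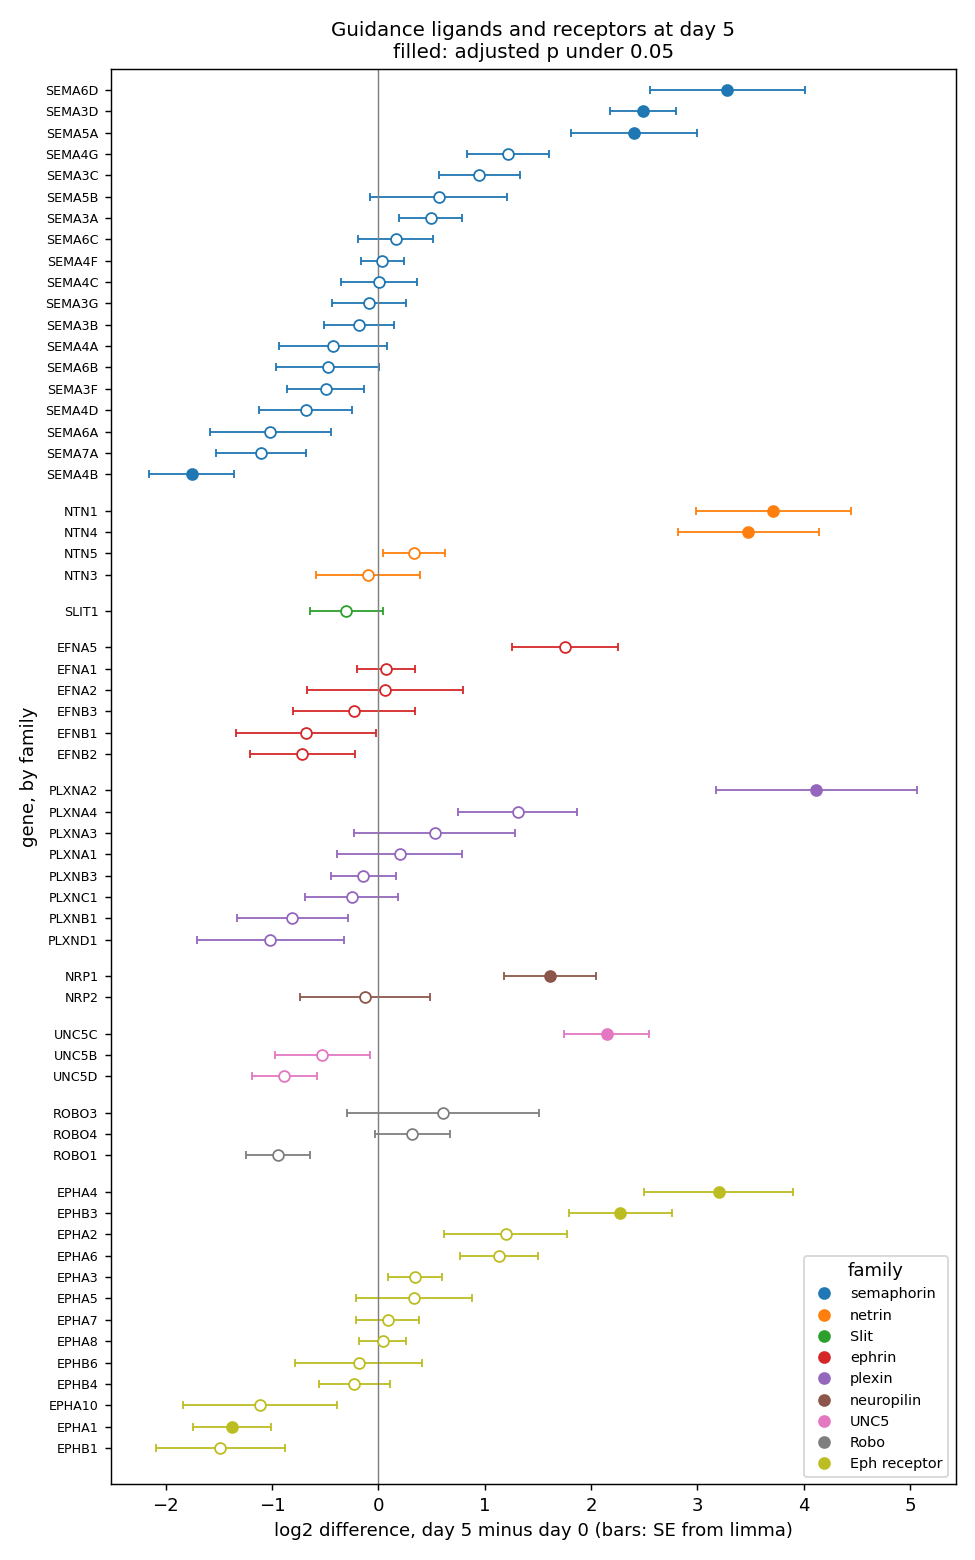
Difference in log2 intensity between day 5 and day 0 for the 59 guidance genes with a probe set of their own, grouped by family and ordered by size within it, with bars for the SE from limma. Filled points passed the test: 10 lie to the right of 0, led by PLXNA2 at 4.12, and SEMA4B and EPHA1 lie to the left.

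Among the semaphorins 3 of the 19 genes with their own probe set rose at day 5 (2.56% of all probe sets did) and 1 fell (2.89%). SEMA3D, a secreted class 3 semaphorin, had log2 intensities of 5.96, 6.57, 5.31 and 5.04 at day 0, 7.28, 7.20 and 6.77 at day 1, 5.48, 5.55 and 6.05 at day 3, and 7.93, 8.51, 8.15 and 8.26 at day 5. The day 1 and day 5 samples were all higher than any day 0 sample, and the day 3 samples lay within the day 0 range, including replicate 2. The difference between day 5 and day 0 was 2.49 ± 0.31 (5.61-fold, adjusted p 0.000775), and it passed the test whichever 1 sample was left out. Day 5 minus day 3 was 2.51 ± 0.34 (adjusted p 0.0158), and SEMA3D was the only guidance gene of the 64 past the test between those days (1.56%, against 0.0973% of all probe sets, 0.0919% higher at day 5), and also without day 3 replicate 2 (0.157% of all probe sets, 0.103% higher). The earlier steps of this up, down and up course did not pass, with 1.36 ± 0.34 for day 1 minus day 0 (adjusted p 0.236) and -1.39 ± 0.36 for day 3 minus day 1 (adjusted p 0.211).

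The repeat arrays of 1 sample differed for SEMA3D. The array pair of day 5 replicate 4 read 7.81 and 8.70, and that of day 0 replicate 4 read 5.83 and 4.24. With all 16 arrays kept and the sample as a random block, adjusted p was 0.0704 for day 5 minus day 0 and 0.51 for day 5 minus day 3. Day 5 minus day 3 also lost its call in a fit of those groups alone (adjusted p 0.339), without replicate 1 of day 3 (0.0995) and without replicate 2 of day 5 (0.0522). SEMA3A, its neighbour on chromosome 7 in the RefSeq gene order, differed by 0.49 between day 5 and day 0 (adjusted p 0.459).

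The SEMA3D promoter is shown because it is 1 of 2 windows, of 16 searched for guidance genes that passed the test at day 5, that held a searched motif. Windows run from 250 bases before to 50 bases after an annotated start (RefSeq, GRCh38.p14), and 10 of the 12 such genes with a probe set of their own had one. Both strands were searched for letters that 4 kinds of factor are known to bind. AGATAA, for GATA factors, was in 10.3% of all 35116 windows of this length. TCACACC, for T-box factors, was in 3.45% of the windows. ATCCACA, for FOXH1, was in 2.73% of them. CAGACA, for SMAD factors, was in 16.9%. The SEMA3D window lies at chr7:85187007-85187306 on the minus strand, and capitals mark the T-box letters, whose first base is 36 bases after the start. A match is a description of letters, and binding was not measured.
SEMA3D: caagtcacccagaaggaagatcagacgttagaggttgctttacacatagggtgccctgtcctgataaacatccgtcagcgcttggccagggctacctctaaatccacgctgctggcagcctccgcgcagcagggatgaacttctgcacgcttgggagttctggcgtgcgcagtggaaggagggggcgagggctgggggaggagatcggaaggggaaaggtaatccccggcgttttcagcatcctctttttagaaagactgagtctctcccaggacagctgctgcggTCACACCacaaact

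SEMA5A, a transmembrane semaphorin with thrombospondin repeats, had log2 intensities of 7.47, 7.25, 7.45 and 7.35 at day 0, 7.36, 7.37 and 8.11 at day 1, 10.49, 7.12 and 10.64 at day 3, and 9.52, 9.63, 10.00 and 9.99 at day 5. Day 5 samples sat in a narrow band above day 0, and at day 3 replicates 1 and 3 lay higher still while replicate 2 lay below every other sample. The day 5 difference was 2.41 ± 0.59 (5.30-fold, adjusted p 0.0317). It no longer passed with any 1 of the 8 samples of days 0 and 5 left out (adjusted p 0.0598 to 0.0876), and without day 3 replicate 2 adjusted p was 3.19e-05.

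SEMA6D, a transmembrane semaphorin that binds class A plexins, read 7.52, 6.87, 5.86 and 5.02 at day 0, 6.65, 5.78 and 6.97 at day 1, 9.27, 5.89 and 9.47 at day 3, and 9.43, 9.02, 9.88 and 10.07 at day 5. Every day 5 sample lay above every day 0 sample, and day 0 was the widest of the groups apart from day 3. The rise was 3.28 ± 0.73 (9.73-fold, adjusted p 0.0185), and the call was lost without day 0 replicate 3 (adjusted p 0.0558) or 4 (0.0625). SEMA4B, a transmembrane class 4 semaphorin, went the other way. Its values were 9.31, 9.10, 9.23 and 9.10 at day 0, 9.05, 8.52 and 8.82 at day 1, 8.30, 7.41 and 8.46 at day 3, and 7.28, 6.15, 8.17 and 8.11 at day 5. Samples of all 3 later days lay below all day 0 samples. SEMA4B fell by 1.76 ± 0.40 at day 5 (3.38-fold lower, adjusted p 0.0207), and no longer passed with any 1 of the 4 day 0 samples or day 5 replicate 1 left out (adjusted p 0.0507 to 0.067).

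The remaining 15 semaphorins with a probe set of their own did not pass at day 5 with all samples, and their differences ran from -1.10 for SEMA7A to 1.22 for SEMA4G. SEMA4G, another transmembrane class 4 member, had 7.30, 6.85, 7.54 and 7.42 at day 5, against 6.14, 6.12, 5.86 and 6.11 at day 0. Its groups did not overlap, and its adjusted p was 0.0959 with all samples and 0.00443 without day 3 replicate 2. SEMA5B, the close relative of SEMA5A, differed by 0.57 (adjusted p 0.735), and SEMA4A by -0.43 (adjusted p 0.751). SEMA3C lay higher at day 5 in every sample, with a difference between group means of 0.95 (adjusted p 0.200). SEMA3F lay lower in every sample, with a difference of -0.49 (adjusted p 0.572).

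Of the 4 netrins, NTN1 and NTN4 rose (2.56% of all probe sets did), and NTN3 and NTN5 differed by -0.10 and 0.34 with neither past the test. NTN1, the secreted, laminin-related cue for DCC and UNC5 receptors, had 4.75, 4.98, 4.47 and 5.23 at day 0, 5.34, 4.11 and 7.37 at day 1, 8.75, 6.27 and 9.13 at day 3, and 7.92, 7.62, 9.43 and 9.30 at day 5. Day 1 replicate 3 lay towards the later days, and day 3 replicate 2 lay between the groups. The rise at day 5 was 3.71 ± 0.73 (13.1-fold, adjusted p 0.0095). NTN4, a netrin of basement membranes, read 4.34, 5.85, 4.72 and 6.60 at day 0, 2.25, 5.31 and 4.78 at day 1, 7.70, 6.74 and 8.59 at day 3, and 8.37, 9.35, 8.96 and 8.74 at day 5. Day 3 replicate 2 was above all day 0 samples here. NTN4 rose by 3.48 ± 0.66 at day 5 (11.1-fold, adjusted p 0.00816), and both netrins passed the test with any 1 sample left out, with adjusted p at most 0.0338.

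No ephrin with a probe set of its own, of 6, passed at day 5 with all samples (5.46% of all probe sets did). EFNA5, a membrane-anchored ligand of EphA receptors, had 7.91, 8.05, 7.20 and 8.09 at day 0, 8.40, 8.04 and 9.10 at day 1, 10.74, 8.09 and 10.04 at day 3, and 9.50, 8.81, 10.15 and 9.80 at day 5. All day 5 samples exceeded all day 0 samples. The difference between the group means was 1.75 ± 0.50 (adjusted p 0.061, and 0.00678 without day 3 replicate 2). EFNB2, a transmembrane ephrin known from arterial endothelium, differed by -0.72 ± 0.49 (adjusted p 0.538), and its day 5 samples spread from 6.79 to 9.66. SLIT1, the only Slit with a probe set of its own, had 4.49, 5.37, 5.05 and 5.09 at day 5, against 5.21, 5.65, 5.10 and 5.24 at day 0. Those groups overlapped, with a difference of -0.30 ± 0.34 (adjusted p 0.734).

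**Figure D2:**
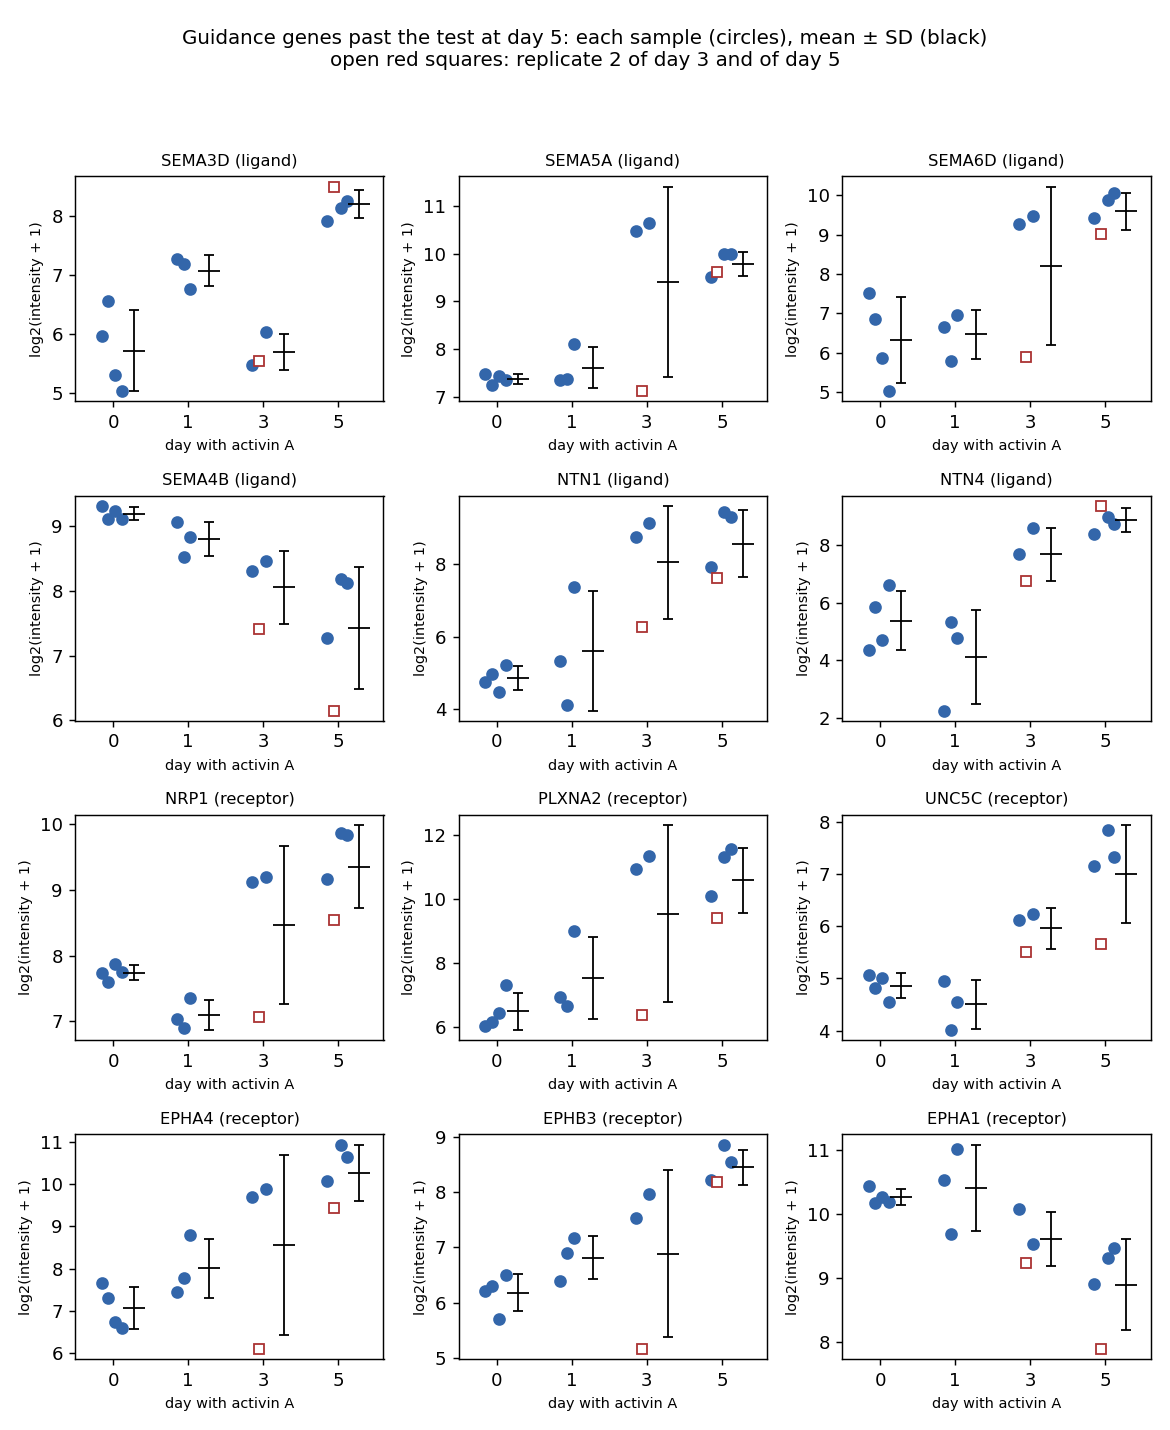
Log2(intensity + 1) of the 12 guidance genes with a probe set of their own that passed the test at day 5, by day, with each sample as a point and the mean ± SD beside it in black. Open red squares are replicate 2 of day 3 and of day 5: for SEMA5A, SEMA6D, PLXNA2, NRP1, EPHA4 and EPHB3 the day 3 square lies with days 0 and 1 or below them, and for SEMA3D it lies with its group.

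Turning to the receptors, NRP1 was the neuropilin that rose. NRP1 is a co-receptor for class 3 semaphorins and for VEGF, and it had 7.74, 7.59, 7.88 and 7.75 at day 0, 7.04, 6.91 and 7.35 at day 1, 9.12, 7.07 and 9.19 at day 3, and 9.17, 8.54, 9.86 and 9.83 at day 5. Its day 1 samples all lay below day 0 and its day 5 samples all above. The day 5 difference was 1.61 ± 0.43 (3.05-fold, adjusted p 0.0474), a call that was lost with any 1 of the 4 day 0 samples or day 5 replicate 1, 3 or 4 left out (adjusted p 0.0903 to 0.125). NRP2, the other neuropilin, had 9.73, 8.35, 10.14 and 10.79 at day 5, against 9.43, 9.54, 9.59 and 10.94 at day 0. For NRP2 the groups overlapped and the difference was -0.13 ± 0.61 (adjusted p 0.949).

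Of the 8 plexins, the signalling receptors of semaphorins, only PLXNA2 passed with all samples (12.5%, against 5.46% of all probe sets). PLXNA2 read 6.04, 6.15, 6.43 and 7.31 at day 0, 6.93, 6.64 and 9.01 at day 1, 10.94, 6.36 and 11.34 at day 3, and 10.10, 9.41, 11.31 and 11.57 at day 5. As for NTN1, day 1 replicate 3 stood above the other day 1 samples, and day 3 replicate 2 lay within the day 0 range. The rise at day 5, 4.12 ± 0.95 (17.4-fold, adjusted p 0.0226), was the largest of the guidance genes with a probe set of their own. It lost the call without day 0 replicate 1, 2 or 3 or day 5 replicate 3 or 4 (adjusted p 0.0564 to 0.0737). A second probe set of PLXNA2, dimmer on average, differed by 3.17 (adjusted p 0.0116). PLXNA4, a class A plexin that partners neuropilins, differed by 1.31 ± 0.56 (adjusted p 0.243), and the other 6 plexins by -1.02 to 0.53.

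Among the UNC5 receptors, which mediate repulsion by netrins, UNC5C rose. UNC5C had 5.06, 4.82, 5.02 and 4.55 at day 0, 4.96, 4.01 and 4.55 at day 1, 6.12, 5.52 and 6.25 at day 3, and 7.17, 5.67, 7.85 and 7.34 at day 5. Each sample of days 3 and 5, both replicates 2 included, exceeded every day 0 sample. The day 5 difference was 2.15 ± 0.40 (4.42-fold, adjusted p 0.00745), and it passed with any 1 sample left out (adjusted p at most 0.0279). UNC5D differed by -0.89 ± 0.31 (adjusted p 0.129) and UNC5B by -0.53 (adjusted p 0.638). The netrin receptors DCC and NEO1, which are outside the 64 genes, differed by -0.24 (adjusted p 0.772) and -0.14 (adjusted p 0.93). The UNC5C window, at chr4:95548924-95549223 on the minus strand, is shown as the promoter of the receptor that passed whichever 1 sample was left out, and it held none of the 4 motifs.
UNC5C: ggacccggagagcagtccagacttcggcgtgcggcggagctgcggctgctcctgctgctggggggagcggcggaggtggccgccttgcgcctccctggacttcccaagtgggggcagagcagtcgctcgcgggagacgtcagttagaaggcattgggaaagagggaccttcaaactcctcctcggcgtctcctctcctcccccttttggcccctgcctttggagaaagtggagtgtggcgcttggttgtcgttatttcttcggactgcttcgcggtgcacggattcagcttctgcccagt

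None of the 3 Robo receptors found (ROBO1, ROBO3 and ROBO4) passed at day 5 (5.46% of all probe sets did). ROBO1, a receptor for Slits, had 9.72, 8.74, 9.74 and 9.79 at day 5, against 10.52, 10.52, 10.07 and 10.66 at day 0. All day 5 samples lay below all day 0 samples, with a difference of -0.95 ± 0.30 that did not pass (adjusted p 0.101). ROBO3, a divergent family member with a part in midline crossing, differed by 0.61 ± 0.90 (adjusted p 0.803), and its day 0 samples spread from -0.46 to 5.27, the lowest of which came from an intensity below 0.

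Of the 13 Eph receptors 2 rose at day 5 (2.56% of all probe sets did) and 1 fell (2.89%). EPHA4, a receptor that binds ephrins of both classes, had 7.66, 7.30, 6.75 and 6.59 at day 0, 7.45, 7.79 and 8.79 at day 1, 9.69, 6.09 and 9.89 at day 3, and 10.08, 9.43, 10.94 and 10.64 at day 5. Day 3 replicate 2 was the lowest EPHA4 sample of all, and the day 5 samples lay clear of day 0. The rise was 3.20 ± 0.70 (9.18-fold, adjusted p 0.0177), and the call was lost without replicate 3 of day 0 (adjusted p 0.052), replicate 4 of day 0 (0.0561) or replicate 3 of day 5 (0.052). EPHB3, a receptor of B-class ephrins, had 6.21, 6.30, 5.71 and 6.49 at day 0, 6.39, 6.90 and 7.16 at day 1, 7.54, 5.16 and 7.96 at day 3, and 8.22, 8.19, 8.86 and 8.55 at day 5. Every day 5 sample lay above every sample of the other days, and day 3 replicate 2 was again the lowest. EPHB3 rose by 2.27 ± 0.49 (4.83-fold, adjusted p 0.0155), a call lost without day 0 replicate 3 (adjusted p 0.0502).

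EPHA1, another EphA receptor, had 10.45, 10.17, 10.27 and 10.19 at day 0, 10.54, 9.68 and 11.01 at day 1, 10.07, 9.23 and 9.53 at day 3, and 8.91, 7.88, 9.32 and 9.46 at day 5. Day 5 lay below day 0 throughout, with replicate 2 the lowest. EPHA1 fell by 1.38 ± 0.37 (2.60-fold lower, adjusted p 0.0463), and did not pass with any 1 of the 4 day 0 samples or day 5 replicate 1, 2 or 3 left out (adjusted p 0.0554 to 0.131), as in a fit of days 0 and 5 alone (0.054). EPHA6 had 7.05, 7.45, 6.45 and 6.09 at day 5, against 5.63, 6.05, 5.47 and 5.35 at day 0. Its groups did not overlap, and the difference of 1.13 ± 0.37 did not pass (adjusted p 0.101). The remaining Eph receptors differed by -1.49 for EPHB1 to 1.20 for EPHA2.

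The EPHA4 window at chr2:221572255-221572554 on the minus strand is the other of the 2 with a searched motif. Capitals mark TGTCTG, the reverse complement of the SMAD letters CAGACA, whose first base lies at -102 from the start.
EPHA4: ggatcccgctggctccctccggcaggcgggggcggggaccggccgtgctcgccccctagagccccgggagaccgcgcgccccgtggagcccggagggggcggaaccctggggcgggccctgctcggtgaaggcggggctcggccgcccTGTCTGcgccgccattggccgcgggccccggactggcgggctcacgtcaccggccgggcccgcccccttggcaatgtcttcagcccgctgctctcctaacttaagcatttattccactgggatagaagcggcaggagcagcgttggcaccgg

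Day 3 was set against day 0 to see which of these differences were already present. With all samples 0 of the 64 guidance genes passed the limma test (0.027% of all probe sets did), and 11 had an unadjusted p under 0.05 (17.2%, against 8.56% of all probe sets). Day 3 replicate 2 had an endoderm marker sum of 3991, against 46301 and 52533 in replicates 1 and 3. These are the only day 3 samples left when it is dropped. Day 3 replicate 2 was singled out by its values in these same data, so the fit without it is no independent support. Leaving out day 3 replicate 1, or replicate 3, gave 0 genes (0% of all probe sets in each fit). Without day 3 replicate 2, 11 genes passed (17.2%, against 3.19% of all probe sets), and all 11 were higher at day 3 (2.05%). The 9 of them with a probe set of their own were PLXNA2, NTN1, SEMA5A, SEMA6D, EPHA4, EFNA5, EPHB3, NRP1 and SEMA4G.

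PLXNA2 showed the largest day 3 difference without that library, 4.66 ± 0.71 (25.3-fold, adjusted p 0.00366), against 3.07 ± 1.02 with all samples (adjusted p 0.339). NTN1 differed by 4.09 ± 0.74 without it (adjusted p 0.0104) and by 3.19 ± 0.79 with it (adjusted p 0.192). SEMA5A differed by 3.19 ± 0.26 without it (adjusted p 0.000135) and by 2.04 ± 0.64 with it (adjusted p 0.307). For these 3 genes day 3 replicates 1 and 3 both lay above every day 0 sample. SEMA6D differed by 3.05 without day 3 replicate 2 and 1.89 with it, EPHA4 by 2.72 and 1.49, EFNA5 by 2.58 and 1.82, EPHB3 by 1.57 and 0.71, NRP1 by 1.41 and 0.72, and SEMA4G by 1.11 and 0.46. Adjusted p ran from 0.00551 for EFNA5 to 0.0466 for SEMA4G without the library, and from 0.280 to 0.855 with it.

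The other guidance genes with a probe set of their own that passed at day 5 did not pass at day 3 in either fit. NTN4 differed by 2.30 ± 0.72 with all samples (adjusted p 0.300) and 2.77 without day 3 replicate 2 (adjusted p 0.0919), and UNC5C by 1.10 ± 0.43 (adjusted p 0.454) and 1.32 (adjusted p 0.203). SEMA4B differed by -1.13 (adjusted p 0.427) and EPHA1 by -0.66 (adjusted p 0.723) with all samples. The SEMA3D difference at day 3 was -0.03 ± 0.34 (adjusted p 0.994). Between day 5 and day 3 none of the other 63 genes passed, and 8 of the 64, SEMA3D included, had an unadjusted p under 0.05 (12.5%, against 5.99% of all probe sets).

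**Figure D3:**
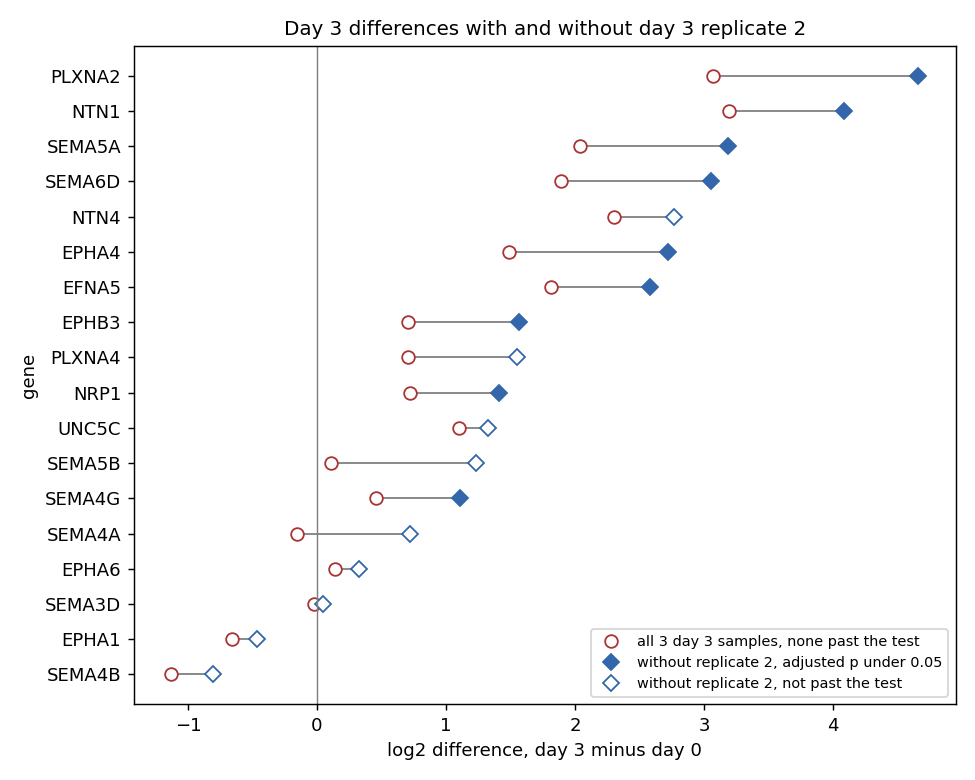
Day 3 minus day 0 difference in log2 intensity of the 18 guidance genes with a probe set of their own that passed any comparison with or without day 3 replicate 2. Open red circles use all 3 day 3 samples, and blue diamonds leave out replicate 2, filled where the gene then passed the test, as for PLXNA2 at 4.66; for SEMA3D circle and diamond nearly coincide.

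Day 1 was set against day 0 for the first response. With limma 0 of the 64 guidance genes passed at day 1, with all samples or without day 3 replicate 2 (0.00541% and 0.249% of all probe sets did). An unadjusted p under 0.05 was found for 2 genes with all samples (3.12%, below the 6.03% of all probe sets) and for 9 without that library (14.1%, against 8.31%). Differences ran from -1.30 for NRP2 to 1.36 for SEMA3D. Groups did not overlap for 12 of the 64 genes (18.8%, against 11.5% of all probe sets), with day 1 above day 0 for 3 (4.86% of all probe sets) and below for 9 (6.62%). SEMA3D and NTN5, a netrin, were above, while below were the semaphorins SEMA4A, SEMA4B and SEMA7A, the plexins PLXNC1 and PLXND1, both neuropilins, the Eph receptor EPHB1 and SLIT1. NRP2 had 8.69, 8.23 and 8.79 at day 1, against 9.43, 9.54, 9.59 and 10.94 at day 0 (adjusted p 0.907).

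The later days were also set against day 1. At day 5, 6 of the 64 genes passed against day 1 (9.38%, against 3.33% of all probe sets), all higher (2.0%). Without day 3 replicate 2, 14 passed (21.9%, against 6.11%), of which 13 were higher (3.54%) and EPHA1 was lower (2.57%). NTN4 rose by 4.74 ± 0.72 (26.7-fold, adjusted p 0.00384) and UNC5C by 2.50 ± 0.43 (5.66-fold, adjusted p 0.00788). Both passed whichever 1 sample was left out, while UNC5C had an adjusted p of 0.0592 in a fit of those groups alone. NRP1 rose by 2.25 ± 0.47 (4.75-fold, adjusted p 0.0193) and SEMA6D by 3.14 ± 0.79 (8.80-fold, adjusted p 0.0477). NRP1 did not pass with any 1 of the 3 day 1 samples or day 5 replicate 3 or 4 left out (adjusted p 0.0539 to 0.0991), nor SEMA6D with any 1 of the 7 samples left out (0.0629 to 0.171). The count of 6 became 2 without day 1 replicate 1 (0.919% of all probe sets).

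EPHA6 passed in that comparison and in no other pairwise one with all samples. The EPHA6 values were 4.77, 4.21 and 5.77 at day 1 and 5.88, 5.39 and 6.02 at day 3. The day 3 values overlapped those at day 0, and day 1 replicates 1 and 2 lay below them. It rose by 1.84 ± 0.40 over day 1 (3.58-fold, adjusted p 0.0229), and lost the call when replicate 1 (0.118) or 2 (0.103) of day 1 or replicate 1 (0.068) or 2 (0.0502) of day 5 was left out, and in a fit of those groups alone (0.107). A second, dimmer probe set of EPHA6 differed by 0.17 (adjusted p 0.944), so the 2 probe sets disagree.

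Day 3 was set against day 1 as well. With all samples 0 of the 64 genes passed with limma (0.0324% of all probe sets did), with 8 at an unadjusted p under 0.05 (12.5%, against 8.62% of all probe sets). With day 3 replicate 1, or replicate 3, left out 0 passed (0.00541% of all probe sets in each fit). With day 3 replicate 2 left out 10 passed (15.6%, against 2.73%), all higher at day 3 (1.89%). SEMA5A differed by 2.95 without that library (adjusted p 0.000494), NRP1 by 2.05 (adjusted p 0.0118), NTN4 by 4.03 and PLXNA2 by 3.61 (adjusted p 0.0252 each). SEMA5B and SEMA4A passed in no other comparison. SEMA5B had 8.63, 5.24 and 8.60 at day 3, against 6.58, 6.42 and 6.86 at day 1, and SEMA4A had 7.91, 5.63 and 8.63 at day 3, against 6.51, 6.79 and 6.47 at day 1. In both genes day 3 replicate 2 was the lowest of all samples, and the differences without it were 2.00 (adjusted p 0.0431) and 1.68 (adjusted p 0.0355).

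A moderated F test over the 3 comparisons with day 0 passed 6 of the 64 genes (9.38%, against 3.73% of all probe sets), and 17 without day 3 replicate 2 (26.6%, against 8.2%). With all samples the 5 with a probe set of their own were SEMA3D (adjusted p 0.00237), NTN4 (0.00669), UNC5C (0.0138), NTN1 (0.0252) and NRP1 (0.0488). The count of 6 became 3 without day 5 replicate 1 (1.78% of all probe sets).

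**Figure D4:**
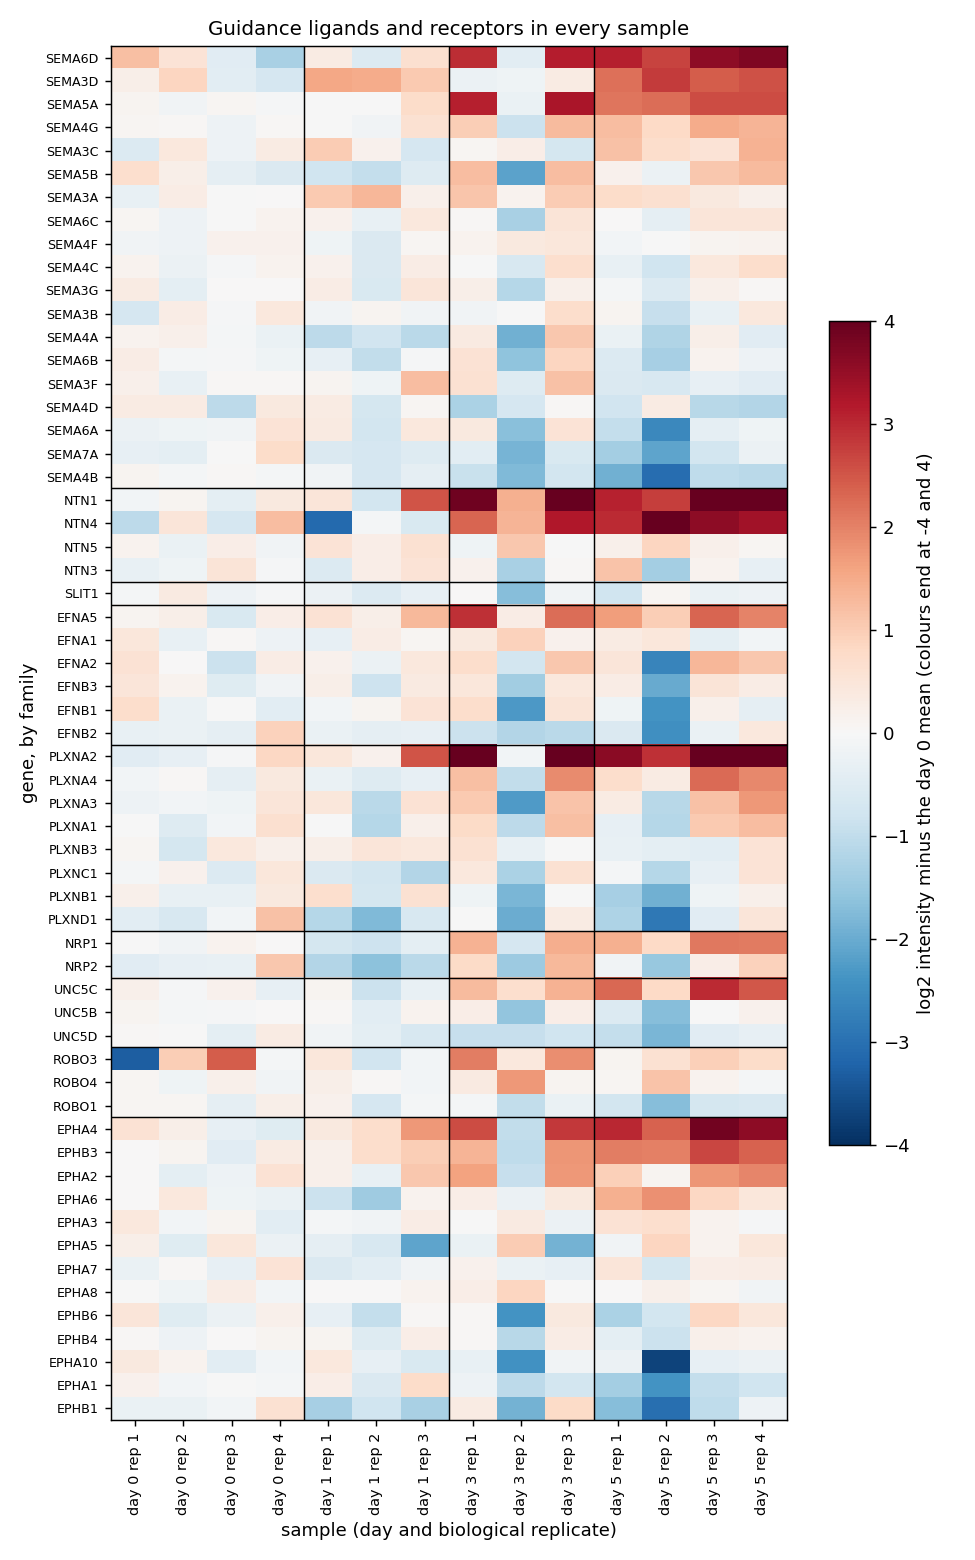
Log2 intensity minus the day 0 mean of the same gene, for the 59 guidance genes with a probe set of their own (rows, by family) in the 14 biological samples (columns, by day), with colours ending at -4 and 4. Red bands at NTN1, NTN4, PLXNA2, SEMA6D and EPHA4 cover day 5 and day 3 replicates 1 and 3, and the columns of day 3 replicate 2 and day 5 replicate 2 hold the lowest value for 16 and 20 genes.

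Other genes of the same pathways were taken from a list of 76 co-receptors, further ligands and intracellular partners, 60 of them on a probe set with no other symbol. At day 5, 8 of the 60 passed (13.3%, against 5.46% of all probe sets), 3 higher and 5 lower, with a median of -0.25. Higher were FLRT3, a membrane protein that binds UNC5 receptors and latrophilins (3.38, adjusted p 0.0221), DSCAM, a cell adhesion receptor reported to bind netrin (2.13, adjusted p 0.0052), and the latrophilin ADGRL3 (1.14, adjusted p 0.0469). Lower were MET, the receptor of hepatocyte growth factor that can associate with class B plexins (-2.12, adjusted p 0.0035), and the VEGF receptors KDR (-1.23, adjusted p 0.0239) and FLT1 (-1.18, adjusted p 0.0395). Of 40 intracellular partners 2 were lower (5.0%, close to the share of all probe sets), DPYSL3, a collapsin response mediator protein (-1.73, adjusted p 0.0062), and VAV3, a guanine nucleotide exchange factor (-1.16, adjusted p 0.0159).

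Markers of other cell types were read beside the guidance genes. Of all probe sets, 2.56% passed and were higher at day 5 than at day 0, and 2.89% passed and were lower. Of 11 neural markers with a probe set of their own 1, PAX6, rose at day 5 (4.34, adjusted p 0.00033). Differences of the 11 were above 0 for 5 and below 0 for 6, with a median of -0.06. Their summed intensity, to which bright markers add most, was 1193 to 2921 at day 5 and 779 to 1331 at day 0. Of 9 markers of mesoderm and endothelium HAND1 rose (2.05, adjusted p 0.0486), with sums of 4328 to 7247 at day 5 and 3389 to 4905 at day 0. Differences of these 9 were above 0 for 4 and below 0 for 5, with a median of -0.07. Of 6 trophoblast markers GATA3 rose (2.06, adjusted p 0.00611), with sums of 409 to 936 at day 5 and 256 to 461 at day 0. Differences of the 6 were above 0 for 2 and below 0 for 4, with a median of -0.20. Of 8 fibroblast markers LUM rose (4.57, adjusted p 0.00241), with 4 differences above 0 and 4 below and a median of 0.18. Fibroblast markers summed to 1934 to 6511 at day 5 and 2353 to 6297 at day 0. No marker was listed at 0, and the part of such cells in the guidance gene differences was not tested. Of 11 stem cell markers 5 fell and GDF3 rose (54.5% passed, against 5.46% of all probe sets). Of 7 primitive streak markers 4 rose and 1 fell (71.4% passed). EOMES and GSC are on this list and also on the definitive endoderm list, so the 2 lists are not independent.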

How the data were processed

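The authors deposited 1 table of gene-level intensity on a linear scale, with values from -0.273 to 30307.1, made with genome build hg18 per the submitters' processing notes. Neither the summarisation nor the normalization tools were given in the sources used here. Array medians were nearly equal, at 245.1 to 246.3, so the arrays look normalized, inferred from the values. The medians alone do not tell which method was used. The deposited intensity was taken here to log2 after adding 1, which understates changes of dim probe sets, and the technical arrays of replicate 4 of day 0 and of day 5 were averaged (avearrays), leaving 14 samples of 16 arrays.

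lmFit and eBayes of limma 3.58.1 (R 4.3.3) were fitted on all 18495 probe sets with group as the only term (10 residual and 3 prior degrees of freedom). The code was also run on simulated data with the same spread in every group. That run does not cover groups of unequal spread or single samples that stand apart, as found here. Where a gene had more than 1 probe set, the brightest by mean was taken. Probe sets with 1 symbol numbered 14577, with several 2849 and with none 1069. The number of arrays limits the precision. The labels call the samples biological replicates without naming separate cultures, so p-values measure the spread between these samples.

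The members, lists and tests were chosen with earlier results of these data known. Named with values are members past any of 6 contrasts, members past only without day 3 replicate 2, and others by size of the day 5 difference until a family has 2. SEMA3A, SEMA3C, SEMA3F, SEMA7A, NTN3, NTN5, UNC5B, EPHB1 and EPHA2 were named after their values were seen. Alternative settings were a fit of the 16 arrays in which samples are random blocks, the replicate number as a block, only the groups compared, a pseudocount of 16, leaving out the dimmest 25%, trend and robust eBayes, quantile normalization, median centring, the dimmest probe set per gene, and each sample left out (read for the 64 members and not for other genes); leaving out both replicates 2 together was added after seeing the data.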

Additional observations from a re-analysis of the deposited data

Results flagged for a closer look

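In 4 of the 48 groups of 4 samples tested over the 24 named guidance genes, 1 sample lay far from the others, with a gap to the nearest of them, as a share of the group's range, above Dixon's critical value of 0.829. Chance sets apart about 1 group in 20. SEMA4G had 5.86 (log2 intensity) in day 0 replicate 3, against 6.11 to 6.14 in the other day 0 samples. ROBO1 had 8.74 in day 5 replicate 2, against 9.72 to 9.79 in the other day 5 samples. EFNB2 had 10.16 in day 0 replicate 4, against 8.86 to 8.96, and NRP2 had 10.94 in the same sample, against 9.43 to 9.59.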

How the results depend on the processing

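The count of guidance genes past the test at day 5 against day 0 was 13, and 13 to 17 under the alternatives that keep all samples or leave out both replicates 2, and 5 to 15 with 1 sample left out. At day 1 it was 0 throughout. With replicate 2 of day 3 and of day 5 both left out, chosen after seeing the data, the counts were 14 for day 3 minus day 0 (5.72% of all probe sets passed), 18 for day 3 minus day 1 (6.37%), 0 for day 5 minus day 3 (0.0973%), 18 for day 5 minus day 1 (8.13%) and 21 for the F test (11.5%). Leaving out 1 sample gave 0 to 11, 0 to 10, 0 to 1, 2 to 14 and 3 to 17 for those comparisons. Day 5 minus day 3 had 0 with all 16 arrays and with only the groups compared. The ROBO3 difference at day 5, not past the test, changed sign to -0.078 with a pseudocount of 16 and to -0.50 without day 0 replicate 1 (-0.50 to 1.41 with 1 sample left out). The NRP2 difference at day 5, also not past it, changed sign to 0.23 without day 0 replicate 4 and to 0.34 without day 5 replicate 2 or both replicates 2 (-0.47 to 0.34 with 1 sample left out). A tally of named genes under the alternatives took comparisons that passed with all samples or without day 3 replicate 2. It also took the day 5 difference of genes named by its size. Of these values 734 kept direction and side of the threshold, 73 newly passed, 64 no longer passed and 5 changed sign. Among the 73, 28 came from leaving out day 3 replicate 2, which was itself a ground for entering the tally. A further 28 came from leaving out both replicates 2. The cause was not tested.

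To look for pairing, the group mean of each probe set was subtracted from each sample, and these deviations were correlated between samples of different days. Deviations of samples with the same replicate number correlated above 0.1 in 10 of 19 pairs (r from -0.284 to 0.645). Of the 14 samples, 8 correlated best with their own number. Whether samples with the same number came from 1 culture was not tested. With the replicate number as a block, the counts were 16 for day 5 minus day 0 (7.83% of all probe sets passed), 9 for day 5 minus day 1 (4.01%), 0 for day 3 minus day 0 (0.00541%), 1 for day 5 minus day 3 (0.114%) and 10 for the F test (4.64%).

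Of the 64 genes 10 lie among the dimmest 25% of probe sets, where a difference on this scale depends on the pseudocount. The table gives no signal over background.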

Other observations

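FLRT2, a relative of FLRT3 and a ligand of UNC5D, differed by 2.17 ± 0.68 between day 5 and day 0 (adjusted p 0.0884 with all samples and 0.0102 without day 3 replicate 2). At day 5 against day 1, 6 of the 60 other pathway genes with a probe set of their own passed with all samples: NRCAM, a neural cell adhesion molecule (1.97, adjusted p 0.0173), the small GTPase RRAS (1.54, adjusted p 0.0148), ADGRL3 (1.56, adjusted p 0.0213), DSCAM (1.68, adjusted p 0.0402) and FLRT3 (3.31, adjusted p 0.0496) were higher, and VAV3 was lower (-1.40, adjusted p 0.0134). This is set beside 3.33% of all probe sets.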
